A study of Mus musculus with 6 samples.

Results

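The aryl hydrocarbon receptor (AHR) gene Ahr, its partner Arnt, its repressor Ahrr and 5 genes known as its targets (Cyp1a1, Cyp1b1, Tiparp, Nqo1 and Scin) were followed in mouse embryonic stem cells exposed to SC1. The set was chosen because Cyp1a1 and Cyp1b1 rose with SC1, and its members were the probes whose accession is a transcript of a listed gene. All 8 genes were on the array, among 20660 genes with a RefSeq symbol, and 12 of 55681 probes belonged to them. The samples were J1 cells, a line from the inner cell mass of the 129S4/SvJae strain, grown without feeders on gelatin in serum replacement medium with 1000 U/ml of the self-renewal cytokine LIF. For 6 h, 3 samples received SC1 at 1 µM and 3 received the solvent DMSO. SC1, also called pluripotin, is a synthetic small molecule reported to inhibit the kinase ERK1 and the RAS regulator RasGAP. The labels name 1 cell line and do not say whether replicates were separate cultures, so every SE and p rests only on variation among these arrays, part or all of which may be technical.

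AHR is a cytoplasmic receptor of the bHLH-PAS family, held there by chaperones such as HSP90 and p23. On binding a planar aromatic ligand it enters the nucleus, pairs with ARNT and binds DNA at the core motif GCGTG, the xenobiotic response element. Its best known outputs are the cytochrome P450 genes Cyp1a1 and Cyp1b1, whose enzymes oxidise aromatic ligands, and the feedback genes Ahrr and Tiparp, whose products restrain the receptor.

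The start regions of the genes that moved most are shown because the core motif is what known AHR targets share in sequence. A 300-base window (250 bases before to 50 after the start, RefSeq, build GRCm38.p6) was given for 7 of the 8 genes. The windows below were chr9:57697363-57697662 on the plus strand for Cyp1a1, chr17:79715012-79715311 on the minus strand for Cyp1b1, chr3:65528197-65528496 on the plus strand for Tiparp and chr8:107403156-107403455 on the minus strand for Nqo1. Each is printed 5′ to 3′ on the strand of its gene, and capitals mark GCGTG or its reverse complement CACGC.
Cyp1a1: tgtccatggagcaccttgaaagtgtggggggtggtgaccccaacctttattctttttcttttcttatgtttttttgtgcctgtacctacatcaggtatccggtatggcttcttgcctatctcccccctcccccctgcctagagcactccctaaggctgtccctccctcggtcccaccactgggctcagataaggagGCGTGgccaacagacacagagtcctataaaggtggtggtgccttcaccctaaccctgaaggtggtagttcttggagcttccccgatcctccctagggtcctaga
Cyp1b1: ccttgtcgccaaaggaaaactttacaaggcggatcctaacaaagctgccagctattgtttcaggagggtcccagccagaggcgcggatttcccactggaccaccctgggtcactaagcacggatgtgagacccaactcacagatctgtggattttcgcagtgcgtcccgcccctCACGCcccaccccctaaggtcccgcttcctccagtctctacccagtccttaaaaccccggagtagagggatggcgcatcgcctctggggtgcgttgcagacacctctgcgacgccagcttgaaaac
Tiparp: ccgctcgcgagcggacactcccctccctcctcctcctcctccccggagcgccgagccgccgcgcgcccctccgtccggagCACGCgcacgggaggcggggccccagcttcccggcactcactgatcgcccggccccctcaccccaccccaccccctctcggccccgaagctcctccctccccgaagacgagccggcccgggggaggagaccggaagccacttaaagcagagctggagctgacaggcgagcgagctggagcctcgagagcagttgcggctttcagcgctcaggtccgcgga
Nqo1: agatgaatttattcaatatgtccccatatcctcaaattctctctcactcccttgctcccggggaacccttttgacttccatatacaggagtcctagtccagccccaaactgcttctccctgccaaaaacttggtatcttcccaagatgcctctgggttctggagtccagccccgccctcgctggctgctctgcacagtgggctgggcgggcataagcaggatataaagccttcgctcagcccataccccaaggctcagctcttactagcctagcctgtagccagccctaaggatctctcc

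The motif GCGTG, read on both strands, was found in 6 of the 7 windows and in 32.4% of all 32851 windows of this length. In the Cyp1a1 window its first base lay 54 bases before the start, in Cyp1b1 76 bases before as CACGC, and in Tiparp 170 bases before as CACGC. The windows not printed held it once in Arnt, 29 bases before the start, once in Scin, 35 bases before, and at 3 places in Ahrr. The Nqo1 window held none. Sequence outside the windows was not searched, so sites farther from a start are not covered for any gene. The longer motif TNGCGTG, which contains the core, was found in 1 of the 7 windows, that of Ahrr, and in 5.07% of all windows. The GC content was 73.7% for Tiparp and between 52.0% and 60.3% for the other 6, against a median of 52.7% over all windows. The motif contains the letters CG, whose median count was 7 over all windows. That count was 34 for Tiparp, 19 for Arnt, 17 for Ahrr, 16 for Cyp1b1, 16 for Scin, 5 for Nqo1 and 4 for Cyp1a1. The share that base composition gives was not computed. The motif thus occurred in windows of genes that rose, fell or did not pass, and a match of these letters is a description of the sequence.

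Each array held 62976 spots. The signal used here is Agilent's processed signal, corrected for background within the array, given as a percentage of the 75th percentile of that array's probe signals so that arrays can be compared. That percentile was 443 to 493 on the SC1 arrays and 532 to 539 on the DMSO arrays, and 63.2% to 65.1% and 65.0% to 65.6% of the probes were well above background. No spot was saturated. After a filter on dim probes 25408 features were tested, 15470 genes with a RefSeq symbol and 9938 array accessions without one, and both kinds are counted as genes in what follows. All arrays were on 1 slide and in 1 scan; SC1 replicate 1 shared the first column of the slide with the 3 DMSO arrays, and SC1 replicates 2 and 3 lay in the second. All 8 pluripotency markers, Pou5f1, Nanog and Sox2 among them, were well above background on every array, with 2 called higher and 2 lower with SC1. Of 10 fibroblast markers 7 were above background on every array, while Lum, Postn and Fap were above it on none, and their summed signal was 211% to 217% with SC1 and 245% to 262% with DMSO, though 4 of the markers were called higher with SC1 and 1 lower. Of 6 hepatocyte markers 3 were above background on every array while Alb and Afp were above it on none; their summed signal was 977% to 1051% with SC1 and 1301% to 1332% with DMSO, with none called higher and 2 lower. All 7 primitive endoderm markers were above background, summing to 110% to 123% with SC1 and 102% to 109% with DMSO, with 3 called higher and none lower. The part of other cell types in the results below was not tested, and in bulk RNA fewer cells of a type and less RNA per cell cannot be told apart.

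The 2 P450 genes that chose the set rose together, Cyp1a1 about 10-fold and Cyp1b1 about 5-fold, with little spread between arrays. Cyp1a1, which encodes the P450 that clears many AHR ligands, had signals of 101%, 98.9% and 104% on the SC1 arrays and 10.9%, 9.41% and 9.59% on the DMSO arrays. The lowest SC1 array was thus far above the highest DMSO array. Its mean was 101% ± 2.74 with SC1 and 9.98% ± 0.841 with DMSO (SD, n = 3 each), a 10.2-fold difference and a log2 fold change of 3.35 (SE 0.0689), rank 5 from the top of 25408 genes. Cyp1b1, an extrahepatic P450 that also metabolises oestrogens and retinoids, had signals of 71.7%, 71.5% and 73.2% on the SC1 arrays and 15.2%, 13.9% and 14.1% on the DMSO arrays. Its groups were as cleanly apart. The mean was 72.2% ± 0.918 with SC1 and 14.4% ± 0.713 with DMSO (SD, n = 3 each), a 5.03-fold difference and a log2 fold change of 2.33 (SE 0.0494), rank 41 from the top.

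Both genes were dim without SC1. The raw Cyp1a1 spot was 29.5 times its local background with SC1 and 4.13 times with DMSO, and the Cyp1b1 spot 18.1 times with SC1 and 4.94 times with DMSO. The size of the difference also moved with the processing. With normexp (a model of signal plus background, offset 50) and quantile normalization the log2 fold changes were 2.45 for Cyp1a1 and 1.64 for Cyp1b1, in the same direction. That setting starts from another spot signal and changes the background, the offset and the scaling together, and their separate parts were not tested. In the first column of the slide, which held SC1 replicate 1 and all DMSO arrays, they were 3.34 and 2.32. These 2 differences chose the set and are given as a description, without a test.

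**Figure D1:**
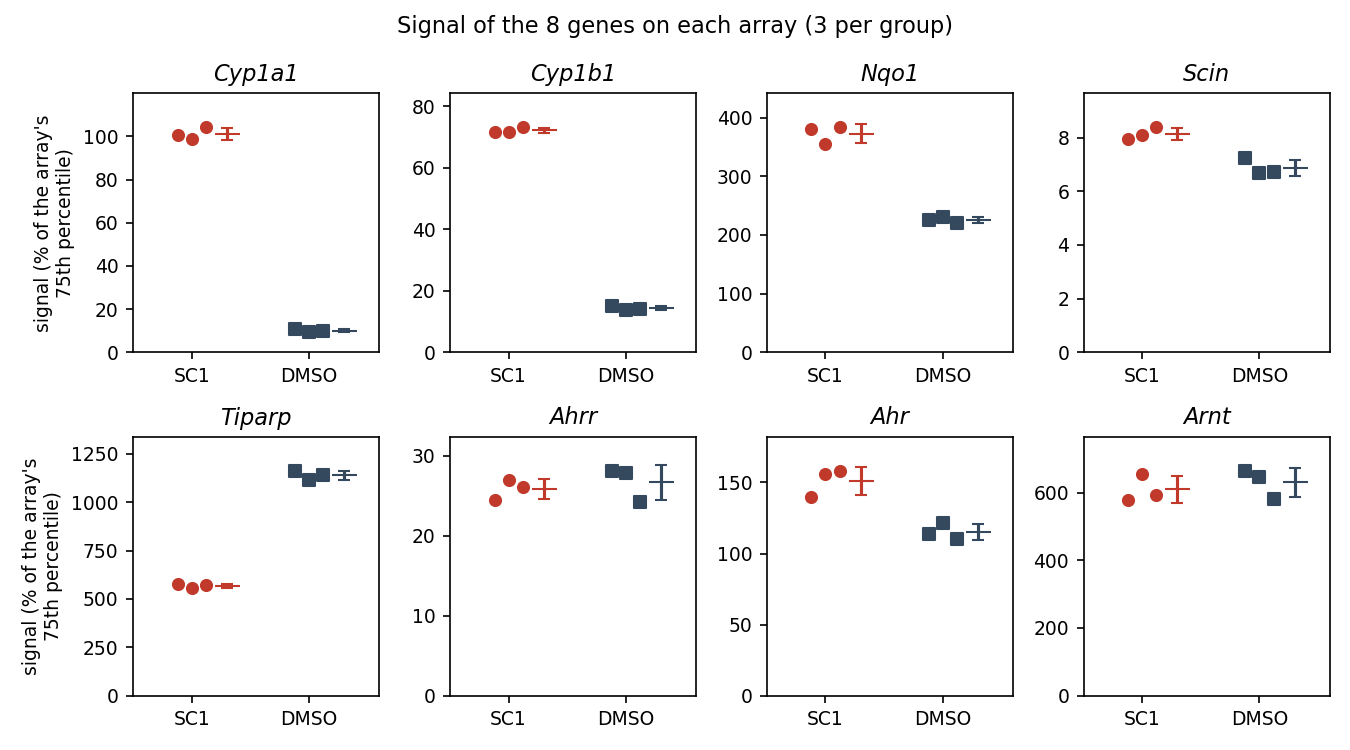
Signal of the brightest probe of each of the 8 genes on every array, as a percentage of the array's 75th percentile (vertical axis from 0, own scale per gene), SC1 left and DMSO right; points are arrays, the dash and bar the mean and SD (n = 3). Cyp1a1 and Cyp1b1 stand far apart between groups (101% against 9.98%, 72.2% against 14.4%), Tiparp is the one that is lower with SC1 without overlap, and Ahrr and Arnt overlap.

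The other AHR targets did not follow the P450 genes as a block: Nqo1 and Scin were higher with SC1, and Tiparp was lower. Nqo1 encodes a quinone reductase that both AHR and the oxidative stress factor NRF2 induce. It had 379.7%, 355% and 383% on the SC1 arrays and 226%, 230.2% and 220.1% on the DMSO arrays, with no overlap. The mean was 373% ± 15.7 with SC1 and 225% ± 5.11 with DMSO (SD, n = 3 each), a 1.65-fold difference and a log2 fold change of 0.72 (SE 0.0484). Only 4.50% of all genes had a larger increase.

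Scin encodes adseverin, an actin-severing protein of the gelsolin family that dioxin, the classical AHR ligand, induces in the mouse thymus. It had 7.95%, 8.10% and 8.39% on the SC1 arrays and 7.23%, 6.68% and 6.72% on the DMSO arrays. The groups did not overlap but lay close together on a dim probe, whose raw spot was 3.31 times its local background with SC1 and 3.13 times with DMSO. The log2 fold change was 0.25 (SE 0.050), a 1.19-fold difference, and 0.069 with normexp and quantile normalization.

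Tiparp, which encodes a mono-ADP-ribosyltransferase (PARP7) that is induced by AHR and limits its activity, moved opposite to the P450 genes. Its brightest probe had 576%, 555% and 569.6% on the SC1 arrays and 1163%, 1115% and 1142% on the DMSO arrays. Every SC1 array lay far below every DMSO array. The mean was 567% ± 11.2 with SC1 and 1140.0% ± 23.7 with DMSO (SD, n = 3 each), a log2 fold change of -1.01 (SE 0.0405), or 2.01-fold lower. Its other probe had 382%, 365% and 391% on the SC1 arrays and 643%, 709.6% and 686% on the DMSO arrays, a log2 fold change of -0.84. Both probes were thus lower with SC1 on every array, and 1.99% of all genes had a larger decrease than the brightest probe.

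Ahrr, whose product competes with AHR for ARNT and represses the same sites, did not follow Cyp1a1 either. It had 24.5%, 26.9% and 26.2% on the SC1 arrays and 28.1%, 27.8% and 24.2% on the DMSO arrays, and the groups overlapped. The log2 fold change was -0.044 (SE 0.0750), and it was 0.012 with normexp and 75th percentile scaling. A further Ahrr probe was not well above background on any array. The receptor gene itself was slightly higher: the main Ahr probe had 140.0%, 156% and 158% on the SC1 arrays and 114%, 121% and 110.4% on the DMSO arrays. These values did not overlap, and the log2 fold change was 0.39 (SE 0.0663), a 1.31-fold difference. Within the first slide column it was 0.28, and for SC1 replicates 2 and 3 against the DMSO arrays 0.45. Another Ahr probe was well above background on 2 SC1 arrays and 1 DMSO array and was not used.

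Arnt, the obligate partner, had 579%, 656% and 593% on the SC1 arrays and 665%, 645% and 582% on the DMSO arrays on its brightest probe. Its other probe had 115%, 101% and 111% on the SC1 arrays and 113%, 111% and 112% on the DMSO arrays. Both probes overlapped between groups, with log2 fold changes of -0.050 (SE 0.0744) on the brightest and -0.041 on the other. On the brightest probe the value was 0.024 with normexp and quantile normalization, so no direction is given.

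**Figure D2:**
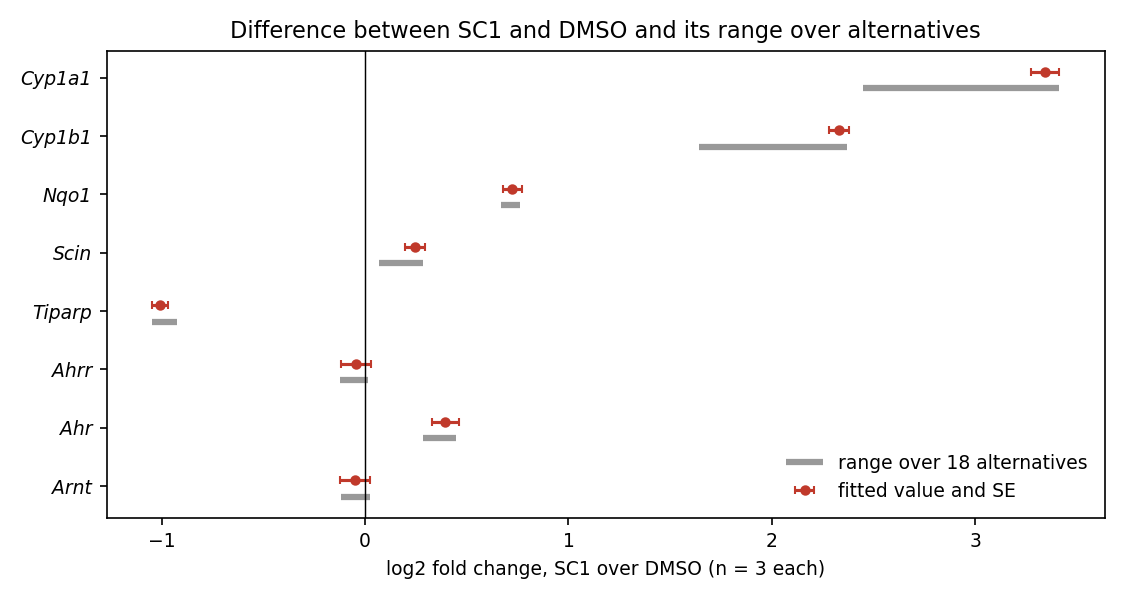
Log2 fold change, SC1 over DMSO, of the 8 genes (points with SE, n = 3 per group) and the range over 18 alternative ways of processing (grey bars). Cyp1a1 and Cyp1b1 reach down to 2.45 and 1.64 at their smallest, Tiparp stays between -1.05 and -0.92, and the bars of Ahrr and Arnt cross 0.

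Across the 8 genes, 10 of 12 probes and all 8 genes passed the filter, which asked that a probe be well above background on each of the 3 SC1 or each of the 3 DMSO arrays. In the limma fit, with 0.05 as the limit on p after Benjamini-Hochberg adjustment, 5 of the 8 were higher, 1 was lower and 2 did not pass, beside 38.4% of all 25408 genes called, 18.1% higher and 20.2% lower (4609 higher and 5137 lower here, against 6959 and 5070 with normexp and 75th percentile scaling). The groups did not overlap for 6 of the 8, beside 52.1% of all genes, and 5 of the 8 had a log2 fold change above 0, beside 49% of all genes. Since the set was chosen on this contrast, nothing is read from these counts. The median over the 8 was 0.32, against -0.0052 over all genes. It includes Cyp1a1 and Cyp1b1, whose rise chose the set, so nothing is read from it either. When the arrays were scaled to 8 spike-in probe sequences, Ahr and Scin were no longer among the called genes. With the slide column as a block neither passed. The second column held no DMSO array, so the difference in that fit is SC1 replicate 1 against the 3 DMSO arrays. It was 0.28 for Ahr and 0.21 for Scin on the log2 scale. Scin was also not called with normexp and quantile normalization or with an intensity trend and robust prior, which left it called in 14 of 18 alternatives.

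**Figure D3:**
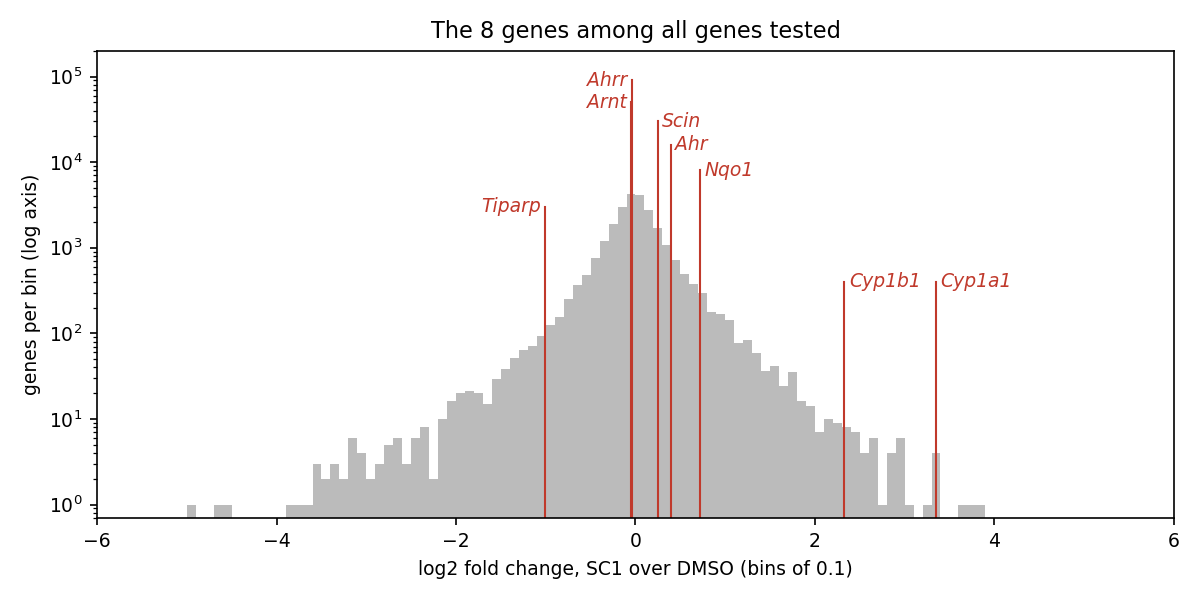
Number of genes per bin of 0.1 in log2 fold change, SC1 over DMSO, over the 25408 genes tested (grey, log axis), with the 8 genes marked in red; the heights of the red lines have no meaning. Cyp1a1 and Cyp1b1 lie in the sparse upper tail at 3.35 and 2.33, Tiparp at -1.01, and Arnt and Ahrr in the central peak.

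The genes whose arrays ran closest to those of Cyp1a1 were ranked by the root mean square, over the 6 arrays, of the difference in log2 signal after each gene's DMSO mean was subtracted. They were Cidea, a lipid droplet protein gene (0.0497), Pdzk1, a scaffold gene (0.162), the neuropeptide receptor gene Qrfpr, the transporter gene Abca8b (0.294) and the methyltransferase gene Bhmt2. Their log2 fold changes were 3.30 for Cidea, 3.34 for Pdzk1 and 2.95 for Abca8b. Qrfpr and Bhmt2 were not well above background on any DMSO array, so no distance is given for them and their order is uncertain; they rose at least 2.10-fold and at least 2.86-fold, lower bounds for which each DMSO array took its measured signal or its dimmest detected probe, whichever was brighter. Among the genes closest to Cyp1b1 were Srgap3 (0.0518), Dusp8 (0.0953), Rasgrp1 (0.103) and Pdgfc (0.111), with log2 fold changes of 2.36, 2.42, 2.30 and 2.47. No gene of the related lists below was among these genes. The measure could not have placed one there, since it mostly follows the log2 fold change. The largest log2 fold change on those lists was 1.23.

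Related genes outside the set were followed in 8 lists of 105 genes, of which 103 were matched to a probe and 85 were tested. Of the 85, 17 rose, 20 fell and 48 did not pass, so 43.5% were called beside 38.4% of all genes, and their median log2 fold change was 0.041. Adjusted p values in the following come from limma with Benjamini-Hochberg adjustment over all 25408 genes.

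Of 20 further genes described as AHR-induced, 19 were matched to a probe and 11 were tested. Of these 5 rose, none fell and 6 did not pass, so 45.5% were called beside 38.4% of all genes. Over all genes 18.1% were called higher and 20.2% lower. Ugdh, 1 of the 5, lost its call in 11 of the 18 alternatives. Genes that did not pass lay on both sides of 0, from -0.51 for Vav3 to 0.84 for Lpcat2. The median log2 fold change of the 11 was 0.17 beside -0.0052 over all genes. Cyp1a2, the neighbour and closest relative of Cyp1a1 and a liver enzyme gene, was not well above background on any array. The same held for Ugt1a6a and Xdh, which encode drug and purine metabolising enzymes. Cdkn1b, which encodes the cell cycle inhibitor p27, had 741%, 733% and 741% on the SC1 arrays and 444%, 478% and 462% on the DMSO arrays. It rose by 0.68 on the log2 scale (SE 0.0435, adjusted p = 0.000151). Htatip2, a tumour suppressor gene, rose by 0.41 (adjusted p = 0.00892), but its adjusted p was 0.0795 with spike-in scaling. It also did not pass with the slide column as a block, where only SC1 replicate 1 sets the difference. Slc7a5, an amino acid transporter gene, gave 0.17 (log2) by its brightest probe (adjusted p = 0.0308) and -0.36 by another. Its call was lost without any one of 5 of the 6 arrays, with adjusted p values of 0.0904, 0.0596 and 0.0559 without SC1 replicate 1, 2 and 3, and 0.0942 and 0.0959 without DMSO replicate 2 and 3. Aldh3a1, an aldehyde dehydrogenase gene of the classical AHR battery chosen after its values were seen, gave 0.093 (log2) by its brightest probe (adjusted p = 0.303) and 0.88 by another.

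Of 13 genes of proteins that hold, pair with or assist the receptor, 1 rose, 1 fell and 11 did not pass, so 15.4% were called beside 38.4% of all genes. Ncoa2, a p160 coactivator gene, rose by 0.46 (SE 0.0465, adjusted p = 0.000792), and Nrip1, a nuclear receptor corepressor gene, fell by 0.39 on the log2 scale (SE 0.0389, adjusted p = 0.000769). The chaperone genes Hsp90aa1, Hsp90ab1 and Ptges3 had log2 fold changes of -0.021, 0.032 and -0.12. None of these 3 passed, and their adjusted p values ran from 0.169 for Ptges3 to 0.835 for Hsp90aa1. Among 9 tested genes of other bHLH-PAS factors 1 rose, 3 fell and 5 did not pass, so 44.4% were called. Bmal1 (Arntl) and Clock, which form the activator of the circadian clock, had log2 fold changes of -0.34 (adjusted p = 0.00721) and 0.29 (adjusted p = 0.0309), and Epas1, a hypoxia-inducible factor gene, -0.33 (adjusted p = 0.0109). The probes of Epas1 ran from -0.33 to 0.14, and their mean gave -0.16. With spike-in scaling the adjusted p was 0.0839 for Bmal1, 0.326 for Clock and 0.0941 for Epas1. Without SC1 replicate 3 or without DMSO replicate 1, 2 or 3 Clock had adjusted p values of 0.0604, 0.0928, 0.0664 and 0.0808. Npas1, a neuronal factor gene near background, had a log2 fold change of -0.89 (adjusted p = 0.0209), and 0.0043 with normexp and 75th percentile scaling. Its adjusted p was 0.0577 without SC1 replicate 1, and 0.0542, 0.0657 and 0.0638 without DMSO replicate 1, 2 and 3.

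Tryptophan breakdown yields kynurenine, an endogenous AHR ligand. Ido1, Ido2 and Tdo2, the genes of the enzymes of its first step, were not well above background on any array. Of the 6 tested genes of this list of tryptophan and kynurenine enzymes 2 rose, 1 fell and 3 did not pass. The share called was 50%, beside 38.4% of all genes. Kyat3, a kynurenine aminotransferase gene, fell by 0.29 on the log2 scale (adjusted p = 0.00351), Kyat1 rose by 0.21 (adjusted p = 0.0135) and Afmid, the kynurenine formamidase gene, rose by 0.38 (adjusted p = 0.0244). With spike-in scaling none of the 3 passed (adjusted p = 0.133, 0.531 and 0.137). Afmid also failed without SC1 replicate 1 or 2 (adjusted p = 0.0549 and 0.0709) and without DMSO replicate 1 or 2 (adjusted p = 0.0783 and 0.0694).

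Among P450 genes outside family 1, Cyp2s1 rose and Cyp2b10 and Cyp2c29 fell. Of 10 tested genes of other xenobiotic receptors, P450s and their electron donors 3 rose, 2 fell and 5 did not pass. The share called was 50%, beside 38.4% of all genes. Cyp2s1, an extrahepatic P450 reported as dioxin-inducible in mouse cells, had 830.5%, 798% and 891% on the SC1 arrays and 339%, 401% and 338% on the DMSO arrays. It rose 2.34-fold (log2 fold change 1.23, SE 0.0846, adjusted p = 0.000195). Por, the electron donor of microsomal P450s, rose by 0.36 (adjusted p = 0.00708, and 0.176 with spike-in scaling). Cyp3a13, which also rose, lost its call in 5 of the 18 alternatives. Cyp2b10, the model target of the receptor CAR, had 8.18%, 4.73% and 6.95% on the SC1 arrays and 16.1%, 15.1% and 17.0% on the DMSO arrays. It fell by 1.31 on the log2 scale (SE 0.199, adjusted p = 0.00375), and by 0.54 with normexp and 75th percentile scaling. Cyp2c29 fell by 0.52 (adjusted p = 0.000778, and 0.437 with normexp and 75th percentile scaling). Cyp2b10 and Cyp2c29 have close paralogs that may share a probe's signal, which was not tested. The pregnane receptor gene Nr1i2 was not well above background, and Nr1i3, the CAR gene, had a log2 fold change of 0.10 (adjusted p = 0.726).

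Nqo1 is shared with the NRF2 programme. Among 15 tested NRF2 targets there were 2 that rose, 4 that fell and 9 that passed in neither direction. The share called was 40%, beside 38.4% of all genes. The median log2 fold change of these 15 was 0.0041, against 0.72 for Nqo1. Gclm, a subunit of the rate-limiting enzyme of glutathione synthesis, rose by 0.45 (adjusted p = 0.000616), and Me1, the malic enzyme gene, rose by 0.42 (adjusted p = 0.000940). Txnrd1, the thioredoxin reductase gene, fell by 0.46 on the log2 scale (SE 0.0459, adjusted p = 0.000748), and G6pdx, of the pentose phosphate pathway, fell by 0.22 (adjusted p = 0.0140), and by 0.14 with quantile normalization. Gclm, Me1 and G6pdx did not pass with spike-in scaling (adjusted p = 0.0531, 0.0762 and 0.294), and G6pdx had 0.0515 without DMSO replicate 3. Gclc and Tkt, which also fell, lost their calls in 8 and 9 of the 18 alternatives. Hmox1, the heme oxygenase gene chosen after its values were seen, had 441%, 1108% and 512% on the SC1 arrays and 1109%, 1066% and 851% on the DMSO arrays. SC1 replicate 2 stood apart from the other SC1 arrays at the level of the DMSO arrays, and the log2 difference of -0.67 did not pass (SE 0.353, adjusted p = 0.192). Nfe2l2, the NRF2 gene itself, had 0.13 (adjusted p = 0.148).

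Relatives of Tiparp and Scin were compared to see whether these members ran with their families. Among 15 PARP family genes there were 1 that rose, 6 that fell and 8 that passed in neither direction. The share called was 46.7%, beside 38.4% of all genes. The median log2 fold change of these 15 was -0.099, against -1.01 for Tiparp. Parp8, a dim member, had 4.88%, 4.20% and 3.67% on the SC1 arrays and 8.21%, 9.41% and 9.69% on the DMSO arrays. It fell by 1.10 on the log2 scale (SE 0.120, adjusted p = 0.00104), and by 0.25 with normexp and 75th percentile scaling. Parp1, the DNA damage sensor gene, fell by 0.41 (adjusted p = 0.00147), Parp14 by 0.40 (adjusted p = 0.00409) and Parp10 by 0.36 (adjusted p = 0.00361). Parp14 did not pass with the slide column as a block, where only SC1 replicate 1 sets the difference. Parp10 had an adjusted p of 0.0602 with spike-in scaling. Tnks2, which also fell, and Parp4, which rose, lost their calls in 13 and 8 of the 18 alternatives. Of 6 tested gelsolin family genes 2 rose, 3 fell and 1 did not pass, so 83.3% were called beside 38.4% of all genes. Capg, 1 of the 3 that fell, was at -0.15 on the log2 scale and lost its call in 13 of the 18 alternatives. Gsn (gelsolin) and Svil (supervillin) rose by 0.50 (adjusted p = 0.00171) and 0.41 (adjusted p = 0.00150, and 0.0892 with spike-in scaling). Vil1 (villin) and Vill fell by 0.51 (adjusted p = 0.00162) and 0.38 (adjusted p = 0.00286) on the log2 scale, and Vil1 by 0.27 with normexp and 75th percentile scaling. Scin, at 0.25, thus lay between relatives that rose and relatives that fell.

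**Figure D4:**
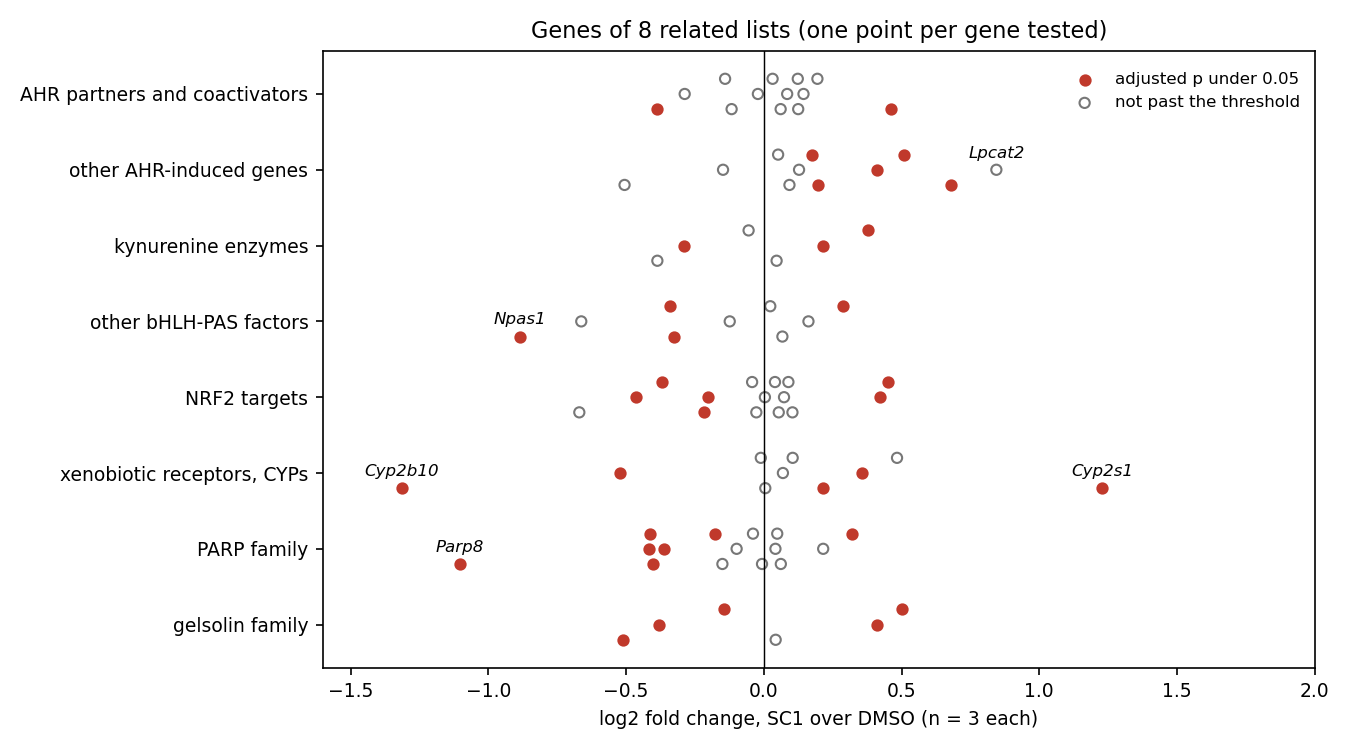
Log2 fold change, SC1 over DMSO (n = 3 per group), of the 85 tested genes of 8 related lists; filled points passed an adjusted p under 0.05, open points did not, and 5 outlying genes are named. The receptor's partners hold 2 filled points of 13. The further AHR-induced genes hold 5 of 11, these 5 to the right of 0, with open points on both sides. Of all genes tested 38.4% were called, 18.1% higher and 20.2% lower.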

How the data were processed

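Each of the 6 samples gave 1 single-colour (Cy3) array of total RNA, per the labels. Spots were quantified with Agilent Feature Extraction 10.7, per the submitters' processing notes, and the array design uses build mm9, per the file headers. The deposited files give spot intensity (a processed, background-corrected signal, and raw spot and background medians) and 0 or 1 flags for spots well above background, saturated or outlying. The authors also deposited a log2 matrix whose method is not given in the sources used here; its columns share a median of 5.17, and 93.1% of its values lay within 0.1 of quantile-normalized log2 signals.

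Outlier spots were left out, the log2 processed signal was averaged over spots of a probe, and each array's 75th percentile was subtracted. A probe was kept if its flag was set on each of the 3 SC1 or each of the 3 DMSO arrays, and the brightest probe stood for a gene. Probes were named by accession through a RefSeq table (27235 of 55681 probes). The contrast of SC1 over DMSO was fitted across all genes in limma 3.58.1 under R 4.3.3 (lmFit, then eBayes), with two-sided p values adjusted by Benjamini-Hochberg, a script tested on simulated data. No set test was run. The number of arrays limits the precision.

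The members, lists, marker genes and tests were chosen with earlier results of these data known. Named genes were the members, in each list the 4 called genes of lowest p (or fewer), and the 5 genes closest to Cyp1a1 and to Cyp1b1; other genes in the text were chosen after their values were seen. Some genes that this rule names are not reported here. Of the listed genes, Gsta1 and Bmal2 were not matched to a probe. Alternatives were other scalings, normexp on the median spot signal (no mean signal was used), the deposited matrix, other filters, the mean of a gene's probes, an intensity trend with a robust prior, the replicate number or the slide column as a block, and leaving out each array. Figures were drawn with matplotlib 3.10.9.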

Additional observations from a re-analysis of the deposited data

How the results depend on the processing

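Of the 25408 genes tested 9746 changed, against 5062 with spike-in scaling and 5537 when the slide column was blocked; over leaving out each array the count ran from 7742 to 8393. Of the 85 genes of the related lists 37 changed, against 20 with spike-in scaling and 24 when the slide column was blocked. Of the 8 AHR genes 6 were called, and 4 with spike-in scaling. Of the 37 called list genes 12 passed under every one of the 18 alternatives and 25 lost the call under at least 1. For Npas1 the log2 fold change was 0.0043 with normexp and 75th percentile scaling (limma adjusted p = 0.956), which gives no direction. It was -0.14 with normexp and quantile normalization, and the cause was not tested. Direction turned for Slc7a5, to -0.095 with the mean of its 2 kept probes (limma adjusted p = 0.0933). Those probes gave 0.17 and -0.36. The motif was found in 6 of 7 windows as GCGTG and in 1 as TNGCGTG, which is longer by construction. Replicate numbers were not used as pairs in the main fit. Deviations of same-numbered arrays from their group means correlated at -0.013, -0.036 and -0.015 across genes. Those of differently numbered arrays ran from -0.060 to 0.079. With 3 arrays per group these values cannot settle whether the numbers pair the samples. With the replicate block 7908 genes, 6 of the 8 AHR genes and 31 list genes were called. Signal over background limits Scin, the DMSO level of Cyp1a1 and Cyp1b1, and dim list genes such as Npas1, Parp8 and Cyp2b10, whose differences were smaller with normexp; the cause was not tested.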
